A study of Mus musculus with 61 samples.

Results

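The unfolded protein response genes described here were 35 genes read by symbol in the count files, out of 24421 genes listed there, and they comprised 3 stress sensors, 3 transcription factors, 9 chaperones and co-chaperones of the endoplasmic reticulum (ER), 5 lectin chaperones and disulfide isomerases, 7 genes of ER-associated degradation, 3 genes of the translocon and 5 targets of the PERK-ATF4 arm. The study asked how STAT5B with a tyrosine of its SH2 domain replaced by phenylalanine (Y665F) or histidine (Y665H) alters transcription in mouse lymphocytes, with the activating N642H substitution as a reference, and total RNA-seq was deposited for 61 samples from C57BL/6 mice at 2 months of age. In 30 of them, naïve CD4+ T cells pooled from lymph nodes and spleens were activated through the T-cell receptor and CD28, transduced with a retrovirus that carried no STAT5B (empty), STAT5B, N642H, Y665H or Y665F, cultured with IL-2 for 48 h and then sorted for CD4 and the GFP of the vector. The donors were either WT or lacked Stat5a and Stat5b in T cells (null background: floxed alleles removed by a Cre driven by the Cd4 promoter, which also acts in CD8+ cells), and each of the 10 combinations had 3 samples. The genotype label reads Stat5a/b flox/flox for all 30, so the background was taken from the sample titles. A further 15 samples were T cells isolated by kit from spleens of WT, STAT5B-Y665H and STAT5B-Y665F mice, in which the mutation was placed in the germline by genome editing. They were kept for 24 h with IL-2 and IL-7 (4 samples of each genotype), while 3 Y665F samples were sequenced directly after isolation, so in that contrast the interleukins and the day of culture cannot be told apart. The counts of Y665H T-cell replicate 4 equalled the sum of replicates 1 and 2 at all 24421 genes (5327354 reads, from 3310342 and 2017012), so it was not a separate sample and was left out, which leaves 3 Y665H samples and 14 splenic T-cell libraries. The last 16 samples were unstimulated spleen libraries, 4 WT, 5 Y665H and 7 Y665F, and the labels used here do not give zygosity. Splenic T cells and whole spleens contain mixtures, and in such bulk samples fewer cells of a type and less RNA per cell cannot be told apart. Nothing in the labels says which replicates came from separate animals or cultures, so p-values measure the spread between these samples.

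The unfolded protein response matches the folding capacity of the ER to the load of newly made secretory and membrane proteins. Its sensors are IRE1 (Ern1), PERK (Eif2ak3) and ATF6 (Atf6): IRE1 splices Xbp1 mRNA so that it encodes an active transcription factor, PERK phosphorylates the initiation factor eIF2α and so favours translation of ATF4, and ATF6 is cleaved to release its own transcription factor. Targets of these arms include chaperones, disulfide isomerases and the machinery that returns misfolded proteins to the cytosol for degradation, and XBP1 is best known among lymphocytes for its role in plasma cells and effector T cells. ATF4 also serves the integrated stress response to amino acid shortage, through kinases other than PERK. The values below are read counts per gene, so the spliced and unspliced forms of Xbp1 are counted together and splicing cannot be read from them.

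Genes of this response are classically controlled through the ER stress response element, ERSE, which is CCAAT followed after 9 bases by CCACG. Windows of RefSeq promoters (GRCm38.p6, 250 bases before to 50 after the transcription start) were found for 30 of the 35 genes, the others being Atf6, Hyou1, Manf, Derl1 and Sec61a1. Derl2 had 2 windows, and members are counted as genes with a match in any window, while all genes are counted by window. Searched on both strands, the exact ERSE was present in 9 of the 30 genes (30%) and in 39 of 32851 windows of all genes (0.119%). The 9 windows are shown because they hold this element, and the genes are mostly chaperones and degradation factors. Each is printed from 5′ to 3′ on the strand of its gene with 10 bases on either side, and capitals mark the ERSE on either strand (CCAAT first, or CGTGG first where it lies on the opposite strand).
Hspa5, chr2:34772015-34772053, plus strand: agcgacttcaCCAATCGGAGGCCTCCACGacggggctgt
Dnajc3, chr14:118937817-118937855, plus strand: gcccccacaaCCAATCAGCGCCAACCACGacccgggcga
Creld2, chr15:88819510-88819548, plus strand: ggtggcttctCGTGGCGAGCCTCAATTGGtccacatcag
Calr, chr8:84847065-84847103, minus strand: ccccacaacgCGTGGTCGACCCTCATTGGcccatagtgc
Canx, chr11:50325790-50325828, minus strand: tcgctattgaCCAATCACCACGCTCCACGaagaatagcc
Pdia6, chr12:17266481-17266519, plus strand: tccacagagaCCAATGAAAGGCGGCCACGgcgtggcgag
Syvn1, chr19:6046522-6046560, plus strand: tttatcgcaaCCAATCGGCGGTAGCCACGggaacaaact
Derl3, chr10:75893232-75893270, plus strand: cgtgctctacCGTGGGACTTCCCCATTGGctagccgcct
Hsp90b1, chr10:86705523-86705666, minus strand: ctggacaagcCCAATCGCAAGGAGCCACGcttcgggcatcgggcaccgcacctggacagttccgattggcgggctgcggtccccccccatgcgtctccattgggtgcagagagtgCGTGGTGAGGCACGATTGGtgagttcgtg
Hsp90b1 held 2 such sites within the stretch shown, in opposite orientations.

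The related element ERSE-II (ATTGG, 1 base, CCACG) was found in Herpud1 and Dnajb11, 2 of the 30 genes (6.67%) against 0.0365% of all windows, and the ATF4 composite site (TGATGNAA) in Herpud1, Trib3, Asns and Chac1, 4 of 30 genes (13.3%) against 3.97%. The Herpud1, Asns and Chac1 sites are shown because these genes were higher in Y665F T cells cultured with interleukins than in those taken directly, with the named element in capitals.
Herpud1 ERSE-II, chr8:94386367-94386397, plus strand: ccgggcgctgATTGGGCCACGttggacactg
Herpud1 ATF4 site, chr8:94386307-94386334, plus strand: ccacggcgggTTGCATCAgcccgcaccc
Asns ATF4 site, chr6:7693215-7693242, minus strand: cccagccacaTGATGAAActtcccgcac
Chac1 ATF4 site, chr2:119351039-119351066, plus strand: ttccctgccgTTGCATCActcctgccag
The gamma-interferon-activated sequence bound by STAT proteins (GAS, TTCNNNGAA) was found in 1 of 30 genes (3.33%), Eif2ak3, against 8.3% of all windows. The core of the unfolded protein response element (TGACGTG) was also found in 1 window, that of Hspa5, against 2.01% of all windows. The motifs CCAAT and CCACG, which are contained in every ERSE, were found in 23 and 24 of the 30 genes (76.7% and 80%), against 37.4% and 32.8% of all windows. Below are the 250 bases before the start of Xbp1, which held none of the 7 elements searched, and of Sdf2l1, which held both of these motifs, in capitals, but no exact ERSE. These genes are shown because both passed with STAT5B, N642H and Y665F in the null CD4+ cells.
Xbp1, chr11:5520391-5520640, plus strand: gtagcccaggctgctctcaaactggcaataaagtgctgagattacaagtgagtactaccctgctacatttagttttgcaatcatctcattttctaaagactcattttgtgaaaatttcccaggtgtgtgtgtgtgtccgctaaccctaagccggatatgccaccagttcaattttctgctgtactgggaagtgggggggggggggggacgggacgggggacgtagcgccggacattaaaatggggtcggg
Sdf2l1, chr16:17132384-17132633, minus strand: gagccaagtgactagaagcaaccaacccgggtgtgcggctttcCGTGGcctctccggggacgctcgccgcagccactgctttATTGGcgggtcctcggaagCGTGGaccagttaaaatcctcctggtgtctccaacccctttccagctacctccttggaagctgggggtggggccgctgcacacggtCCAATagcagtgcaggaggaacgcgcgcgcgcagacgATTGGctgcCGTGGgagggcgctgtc
A match is a description of the letters in the window, not a bound site, and the absence of a match says only that these letters are not in it.

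The libraries held 19735230 to 48757430 reads assigned to genes in the null CD4+ cells, 18825994 to 49850689 in the WT CD4+ cells, 24203179 to 43330536 in the spleens and 2017012 to 27394249 in the splenic T cells, of which 3 libraries had fewer than 4000000. All 35 genes had at least 10 reads in each of the 4 experiments. Levels are given as counts per 1000000 gene reads (CPM) after TMM scaling. The deletion was checked first: Stat5b, in the null cells carrying the empty vector, read 2.83 to 9.82 CPM against 185 to 203 CPM in the WT cells carrying the same vector, and Stat5a 1.74 to 6.89 against 135 to 169 CPM. Stat5b in the null cells carrying a construct read 183 to 384 CPM, reads of the construct included. The CD4+ identity held, with Cd4 at 621 CPM or more and Cd8a at 0.474 CPM or less in every library. Between groups, genes were tested with edgeR's quasi-likelihood test, and a gene is said to rise or fall where the p-value adjusted by Benjamini-Hochberg over all genes tested was under 0.05. Of the 35 genes, 26 passed in at least 1 of 23 comparisons and 9 in none: Ern1, Eif2ak3, Pdia3, Sel1l, Edem1, Sec61a1, Sec61b, Ssr1 and Trib3. In the CD4+ cells, same-numbered replicates of a background deviated together, so a fit with the replicate number as a block is given beside the main value where it changes a call.

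Xbp1 (chr11:5520659-5525893, plus strand, GRCm38) had the largest fold change of the 35 genes with STAT5B, N642H and Y665F in the null background. Null cells with the empty vector held 67.9, 65.1 and 71.3 CPM of Xbp1, those with STAT5B 169, 165 and 128 CPM, those with N642H 238, 260 and 185 CPM, those with Y665F 243, 261 and 159 CPM, and those with Y665H 102, 84.8 and 88.0 CPM. All libraries with any construct lay above all empty-vector libraries, and those with Y665H lay below those with the other 3 constructs. Relative to the empty vector, Xbp1 rose 2.26-fold with STAT5B (log2 1.18, SE 0.17, adjusted p = 0.00102), 3.35-fold with N642H (log2 1.74, adjusted p = 4.64e-06) and 3.24-fold with Y665F (log2 1.70, adjusted p = 7.1e-06). The Y665H difference, log2 0.43 (SE 0.17), did not pass (adjusted p = 0.896, edgeR).

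**Figure D1:**
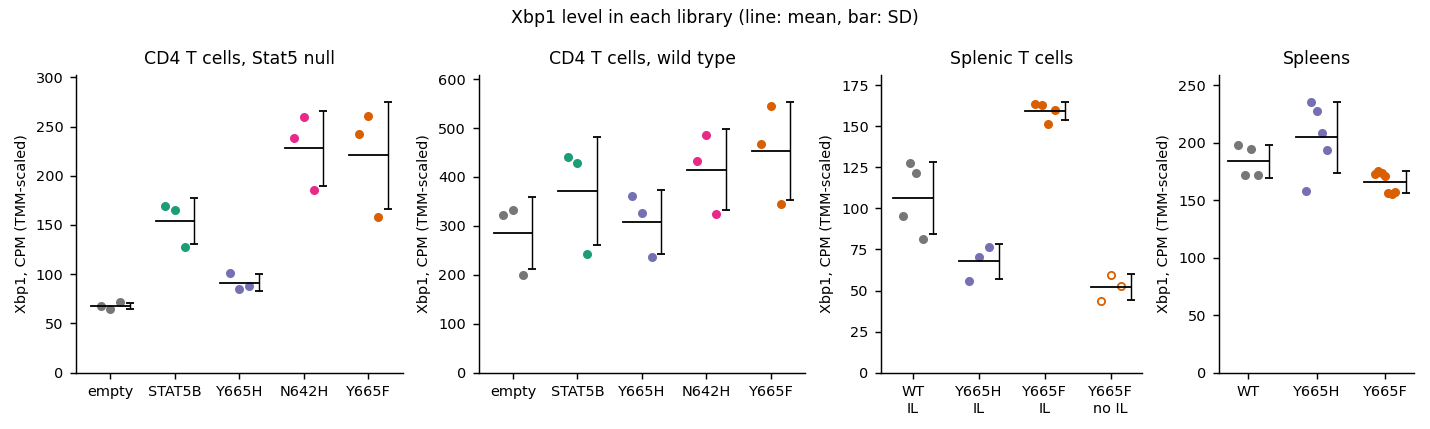
Xbp1 level in CPM (vertical axis) in each library, by group (horizontal axis) in the 4 experiments; points are libraries, lines group means and bars SDs. In null CD4+ cells the empty-vector libraries sit between 65.1 and 71.3 CPM and the Y665F libraries between 159 and 261 CPM, and among splenic T cells the Y665F libraries with interleukins sit above all others.

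Beside Xbp1, 2 of the 9 ER chaperone and co-chaperone genes rose with STAT5B and 6 with each of N642H and Y665F, while Hspa5 passed with none of them and Dnajc3 fell with N642H. With STAT5B, 3 of the 35 genes rose, against 0.95% of all genes tested: Xbp1, Sdf2l1 (log2 0.61, adjusted p = 0.0315) and Creld2 (log2 0.42, adjusted p = 0.0407). With N642H, 11 of 35 rose, against 5.67% of all genes, and 2 fell, against 5.97%. With Y665F, 11 of 35 rose, against 5.16%, and 1 fell, against 4.42%. The counts that fell are near or below the shares of all genes and are not results about the members. The 11 that rose with N642H and with Y665F were the same genes, and both comparisons share the empty-vector libraries. The median log2 fold change over the 35 genes was 0.05, 0.16 and 0.23 for STAT5B, N642H and Y665F, against 0.00, 0.01 and -0.02 over all genes tested. Every member that passed in these comparisons had no overlap between the groups compared, but the share of all genes without overlap was not computed.

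Among the sensors none passed with any construct, and the medians of the 3 were -0.09, -0.19 and -0.04 with STAT5B, N642H and Y665F. Among the transcription factors, Atf4 held 156, 152 and 196 CPM with the empty vector, 255, 247 and 235 CPM with N642H and 261, 237 and 236 CPM with Y665F, and rose by log2 0.55 and 0.54 (adjusted p = 0.00409 and 0.00523). Ddit3, which encodes the pro-apoptotic factor CHOP, did not pass in any of them without the block. With the replicate block it fell with N642H (log2 -0.46, adjusted p = 0.00759) and Y665F (log2 -0.45, adjusted p = 0.0101). The share of all genes called with the block is not given for N642H and Y665F against the empty vector in null cells. Calls made there only with the block, here and below, are therefore description of single genes.

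Of the 9 chaperones and co-chaperones, 6 rose with both N642H and Y665F. Sdf2l1, a component of the Hspa5 chaperone complex, held 41.4, 37.8 and 40.5 CPM with the empty vector, 62.5, 66.2 and 54.2 CPM with STAT5B, 74.1, 78.9 and 55.6 CPM with N642H and 78.0, 79.7 and 60.1 CPM with Y665F. It rose by log2 0.80 with N642H (adjusted p = 0.000988) and 0.86 with Y665F (adjusted p = 0.00068). Manf, a secreted factor retained in the ER that binds Hspa5, held 102, 89.9 and 107 CPM with the empty vector and 156, 161 and 151 CPM with N642H. It rose by log2 0.65 with N642H (adjusted p = 0.000255) and 0.57 with Y665F (adjusted p = 0.000862). Hyou1, a nucleotide exchange factor of the same chaperone, rose by log2 0.62 and 0.59, Creld2 by 0.54 and 0.53, Hsp90b1, the Hsp90 of the ER, by 0.44 and 0.43, and the Hspa5 co-chaperone Dnajb11 by 0.37 and 0.35. Hspa5, the ER chaperone BiP, held 729, 664.9 and 699 CPM with the empty vector and 753, 790 and 721 CPM with N642H, ranges that overlapped, and 731, 781 and 774 CPM with Y665F, and it passed with no construct. Per kilobase of exon, the levels in the empty-vector cells were 235 CPM for Calr, 202 for Pdia3, 165 for Hspa5, 156 for Hsp90b1, 36.0 for Sdf2l1, 28.3 for Manf and 21.0 for Xbp1.

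For 2 co-chaperones the differences were negative, and they are described as single genes. Dnajc3, the inhibitor of PERK known as p58IPK, fell by log2 0.42 with N642H (adjusted p = 0.0224), and with Y665F it differed by log2 -0.34 (adjusted p = 0.0714, and 0.0268 with the replicate block). Dnajb9 held 12.6, 14.7 and 14.0 CPM with the empty vector and 7.90, 8.89 and 10.3 CPM with N642H. Its difference of log2 -0.61 did not pass without the block (adjusted p = 0.0554) and passed with it (log2 -0.62, adjusted p = 0.00253). With STAT5B and with Y665F it passed only with the block (log2 -0.63, adjusted p = 0.00677 and log2 -0.50, adjusted p = 0.0132).

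Of the 5 lectin chaperones and disulfide isomerases, 3 rose with N642H and the same 3 with Y665F: Calr and Canx, which hold glycoproteins during folding, by log2 0.40 and 0.43 with N642H and 0.41 and 0.43 with Y665F, and the disulfide isomerase Pdia6 by 0.49 and 0.44. Pdia4 rose only in the fit with the block (log2 0.31 with N642H, adjusted p = 0.0228, and 0.36 with Y665F, adjusted p = 0.00978). Of the 7 degradation genes none rose and 1 fell: Derl3 held 6.21, 6.04 and 3.21 CPM with the empty vector, 2.07, 2.06 and 2.10 CPM with N642H and 2.84, 2.63 and 1.89 CPM with Y665F, and fell by log2 1.31 (adjusted p = 0.0119) and 1.07 (adjusted p = 0.0415). The 3 translocon genes did not pass, with medians of 0.20 and 0.23, and Sec61a1 passed with Y665F only with the block (log2 0.24, adjusted p = 0.0288).

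None of the 5 PERK-ATF4 targets passed in the null cells without the block. Asns, the asparagine synthetase, held 14.2, 17.5 and 34.1 CPM with the empty vector and 24.2, 26.1 and 32.1 CPM with N642H, so that replicate 3 differed from the other 2 in the controls, and with the block it rose by log2 0.41 with N642H (adjusted p = 0.0305) and 0.46 with Y665F (adjusted p = 0.0185). A further list of 31 ATF4 and amino acid response genes outside the members had 4, 14 and 13 genes that rose with STAT5B, N642H and Y665F and none that fell. Atf3, a stress-induced factor, rose most with N642H (log2 2.32) and Y665F (log2 2.13), and the amino acid transporter gene Slc7a5 most with STAT5B (log2 0.85). The medians of that list were 0.19, 0.34 and 0.37. Of 10 genes of the oligosaccharyltransferase, 2 rose with N642H and 3 with Y665F, led by Rpn1 (log2 0.46 and 0.47). Of 15 heat shock genes of the cytosol and mitochondria 4 and 2 rose, led by the mitochondrial chaperone gene Hspd1 (log2 0.80 and 0.74). Of 21 further ER folding genes 1 rose and 1 fell with each mutant, Dnajc10 (log2 0.37 and 0.39) and Sdf2 (log2 -0.43 and -0.37). Of 20 genes of ER export 2 rose with N642H and 1 with Y665F, of 18 further degradation genes 1 and 1 rose and 2 and 0 fell, and of 15 genes of eIF2α kinases, phosphatases, proteases and cell death 1 rose and 1 fell with each, Eif2s1 (log2 0.46 and 0.43) and Bcl2l11 (log2 -0.64 and -0.57). Read against the shares of all genes that rose (5.67% with N642H and 5.16% with Y665F) or fell (5.97% and 4.42%), the counts of 0 to 2 in these last 4 lists are near the background and are not results about the lists.

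**Figure D2:**
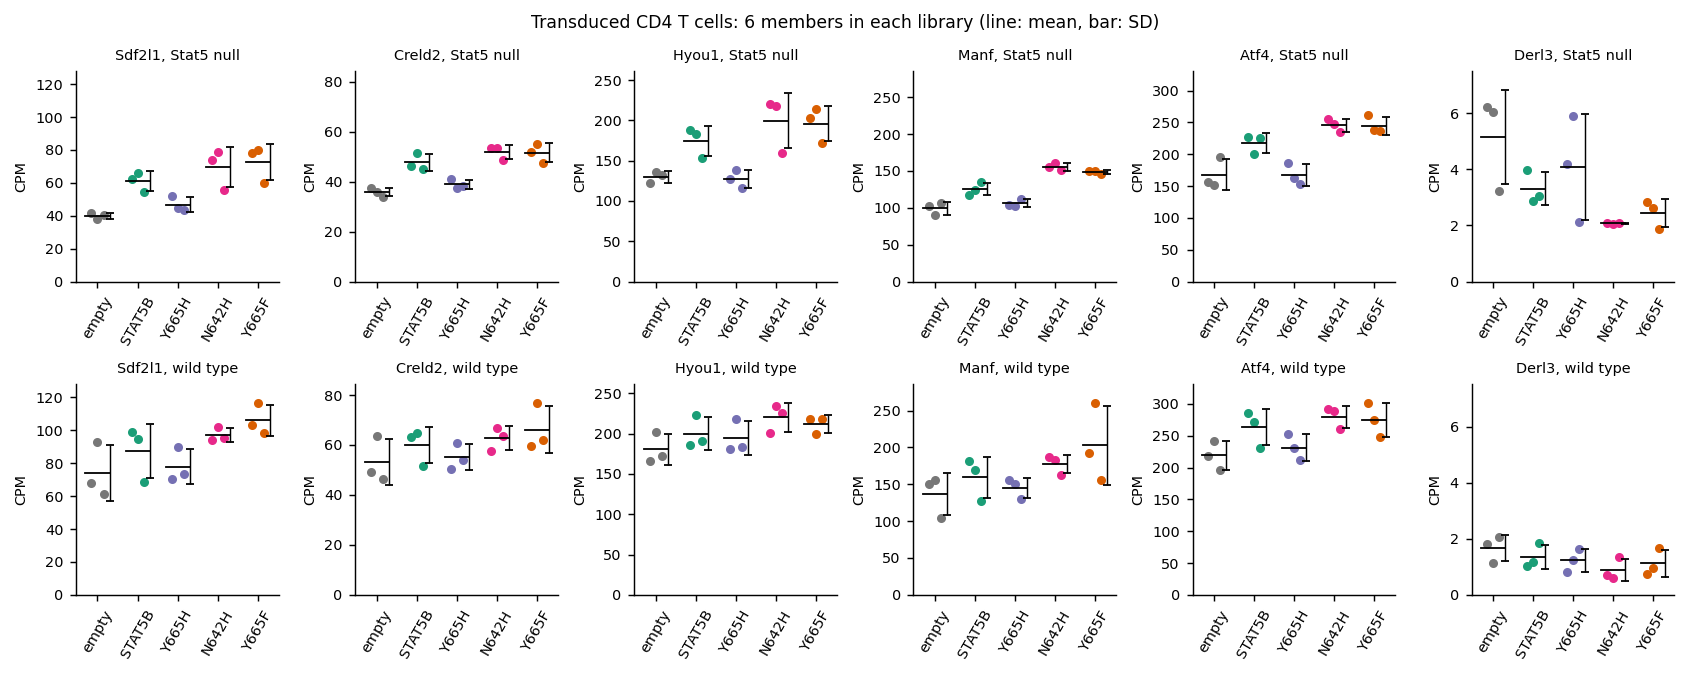
Levels in CPM (vertical axes) of 6 unfolded protein response genes in each CD4+ library, by construct and background (horizontal axes); points are libraries, lines means and bars SDs. In the null background Sdf2l1 and Manf are higher with N642H and Y665F than with the empty vector in every library, and Derl3 is lower.

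With Y665H in the null background, 0 of the 35 genes passed, against 0.0249% of all genes (edgeR; 1 member at an unadjusted p under 0.05; 0 by DESeq2). Directly against STAT5B, 0 members passed with N642H (0.0845% of all genes; 3 unadjusted; 1 by DESeq2), 0 with Y665F (0.0199%; 3 unadjusted; 0 by DESeq2) and 0 with Y665H (0.229%; 7 unadjusted, all lower; 4 by DESeq2). Xbp1 differed from the STAT5B level by log2 0.56 with N642H (adjusted p = 0.429), 0.52 with Y665F (adjusted p = 0.704) and -0.75 with Y665H (adjusted p = 0.0699). With the replicate block, Xbp1 was higher with N642H than with STAT5B (log2 0.56, adjusted p = 0.0324), the only member called there, where 0.875% of all genes were. In the same fit 6 members were lower with Y665H than with STAT5B, where 4.18% of all genes were called: Xbp1 (log2 -0.74, adjusted p = 0.00205), Atf4 (log2 -0.38), Hyou1 (log2 -0.46), Sdf2l1 (log2 -0.38), Canx (log2 -0.32) and Asns (log2 -0.48). With the block, 9 members changed with STAT5B against the empty vector, where 9.5% of all genes were called, the additional ones being Atf4, Hsp90b1, Hyou1, Manf and Pdia6, which were higher, and Dnajb9, which was lower.

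Several libraries decided the smaller counts. Of the comparisons in null cells, the count with STAT5B went from 3 to 1 without empty-vector replicate 1 or 2 or STAT5B replicate 1 or 2, and the count with Y665F from 12 to 6 without empty-vector replicate 2. The count with N642H went from 13 to 8 without empty-vector replicate 2 or N642H replicate 1 or 2. The Xbp1 calls against the empty vector were kept without each library in turn. Other measures moved with the constructs. The summed level of 10 of 12 T-cell markers with a value was 4188 to 4640.0 CPM with the empty vector and 3237 to 3673 CPM with N642H. The 12 B-cell markers, almost entirely Cd74, summed to 176 to 193 CPM against 125 to 136 CPM, 10 proliferation genes to 2931 to 3713 CPM against 3292 to 4358 CPM, and 10 immediate early genes to 896 to 1268 CPM against 1352 to 1437 CPM. Their part in the result was not tested. The 9 plasma cell markers with a value summed to 608 to 700 CPM with the empty vector and 586 to 645 CPM with N642H.

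Null and WT cells with the empty vector were compared to see which members differ between the backgrounds. The backgrounds come from different donors, so the loss of STAT5 cannot be told apart from other differences between donors or preparations. Xbp1 held 322, 333 and 200 CPM in the WT cells against 65.1 to 71.3 CPM in the null cells, with no overlap, and was lower in the null cells (log2 -2.15, SE 0.24, fold 4.45, adjusted p = 4.95e-07), the smallest adjusted p among the members. In all, 8 of the 35 genes were lower in the null cells, against 7.06% of all genes tested, and 4 were higher, against 6.83%. Lower beside Xbp1 were Sdf2l1 (log2 -0.98), Creld2 (log2 -0.66), Hyou1 (log2 -0.56), Manf (log2 -0.54), Hsp90b1 (log2 -0.48), Atf4 (log2 -0.47) and Pdia4 (log2 -0.45), none of which overlapped between the groups. Derl3, a degradation factor (log2 1.55, adjusted p = 0.00421), Sesn2, a stress-induced regulator of mTORC1 (log2 1.33, adjusted p = 0.0087), Dnajb9 (log2 0.90, adjusted p = 0.00211) and Dnajc3 (log2 0.38, adjusted p = 0.0441) were higher, and only Dnajc3 among them overlapped. The share of all genes without overlap was not computed here either. Of the 31 further ATF4 and amino acid response genes 9 were lower, led by Stc2 (log2 -1.84), and 1 was higher, Atf5 (log2 0.85). Of the 10 oligosaccharyltransferase genes 4 were lower, led by Rpn1 (log2 -0.58). The member count was 7 without null empty-vector replicate 2 or without WT empty-vector replicate 1 or 2. These libraries are also the controls of the construct comparisons, so the directions on either side of the null empty-vector cells are not independent. The 10 T-cell markers summed to 3376 to 4019.7 CPM in the WT cells, the B-cell markers to 33.5 to 56.5 CPM and the proliferation genes to 4095 to 5210.7 CPM. The 9 plasma cell markers, most of it Irf4, summed to 357 to 532 CPM in the WT cells against 608 to 700 CPM in the null cells, and 12 CD8 effector and NK markers to 32.5 to 70.8 CPM against 151 to 377 CPM. The part of these differences was not tested.

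In the WT background, where endogenous STAT5 is present, the same constructs were tested against the empty vector. Xbp1 held 441, 429 and 243 CPM with STAT5B, 432, 487 and 325 CPM with N642H, 468, 546 and 346 CPM with Y665F and 362, 327 and 236 CPM with Y665H. In every group replicate 3 was the lowest, and only the Y665F libraries lay wholly above the empty-vector libraries. Without the block, Xbp1 did not pass with N642H (log2 0.54, SE 0.25, adjusted p = 0.473) or Y665F (log2 0.67, SE 0.25, adjusted p = 0.236). With the block it rose with N642H (log2 0.56, SE 0.10, adjusted p = 0.000669) and Y665F (log2 0.68, SE 0.10, adjusted p = 8.76e-05), and it did not pass with STAT5B (log2 0.37, adjusted p = 0.0941) or Y665H (log2 0.13, adjusted p = 1).

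Without the block, 1 of the 35 genes rose with Y665F, against 0.746% of all genes: Pdia6, at 393, 462 and 333 CPM against 279, 288 and 241 CPM (log2 0.56, adjusted p = 0.0406). The call was lost without each of the 3 empty-vector libraries and without Y665F replicate 1 or 2 in turn, and 7 members were called without Y665F replicate 3. The share of all genes called without that library is not given here. With N642H, 0 members passed (1.52% of all genes; 11 unadjusted; 3 by DESeq2), and 0 passed with STAT5B (0.00975%; 1 unadjusted; 0 by DESeq2) and with Y665H (0.00488%; 0 unadjusted; 0 by DESeq2). Against STAT5B in this background 0 passed with N642H (0.00488%; 0 unadjusted; 0 by DESeq2) and with Y665F (0% of all genes; 2 unadjusted; 0 by DESeq2). With the block, 15 members rose with Y665F, where 12% of all genes changed, 9 rose and 2 fell with N642H, where 8.28% changed, and 2 rose with STAT5B, where 1.09% changed. ATF4 targets had the largest fold changes among these calls. Trib3, a pseudokinase that restrains this arm, held 10.6, 15.2 and 6.51 CPM with the empty vector, 35.6, 40.2 and 14.0 CPM with N642H and 27.0, 33.4 and 16.1 CPM with Y665F, and with the block rose by log2 1.42 (adjusted p = 1.42e-07) and 1.26 (adjusted p = 8.91e-07). Asns held 23.6, 20.8 and 16.3 CPM with the empty vector, 59.3, 38.6 and 31.0 CPM with N642H and 67.4, 50.3 and 25.9 CPM with Y665F, and rose with the block by log2 1.05 (adjusted p = 2.34e-05) and 1.17 (adjusted p = 7.44e-06). Sesn2 rose by log2 0.73 and 0.51, and Sdf2l1, Manf and Pdia6 rose with both in that fit. With STAT5B the block called Trib3 (log2 0.77, adjusted p = 0.0027) and Asns (log2 0.64, adjusted p = 0.0211). Trib3 was also higher with N642H than with STAT5B (log2 0.66, adjusted p = 0.0102), where 0.917% of all genes were called. Marker sums moved with the constructs here too. Plasma cell markers, most of it Irf4, summed to 357 to 532 CPM with the empty vector, 651 to 980.2 CPM with N642H and 585 to 788 CPM with Y665F. T-cell markers summed to 3376 to 4019.7, 2680 to 3250.2 and 2962 to 3355 CPM and B-cell markers to 33.5 to 56.5, 56.8 to 89.8 and 53.9 to 90.3 CPM in the same order. Their part in these results was not tested.

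Whether the response to a construct differed between backgrounds was tested as an interaction over both sets of CD4+ libraries. No member passed for N642H (0.387% of all genes; 6 unadjusted; 1 by DESeq2) or Y665F (0.478%; 4 unadjusted; 0 by DESeq2) without a block. The Xbp1 response was larger in the null than in the WT background by log2 1.25 for N642H (SE 0.32, adjusted p = 0.0919) and 1.06 for Y665F (SE 0.32, adjusted p = 0.226). With the replicate number as a block within each background, a fit added after seeing the data, the differences were log2 1.22 (SE 0.16, adjusted p = 6.39e-06) and 1.02 (SE 0.16, adjusted p = 0.000103), and Xbp1 was the only member called for either construct, where 4.36% and 4.11% of all genes were called.

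**Figure D3:**
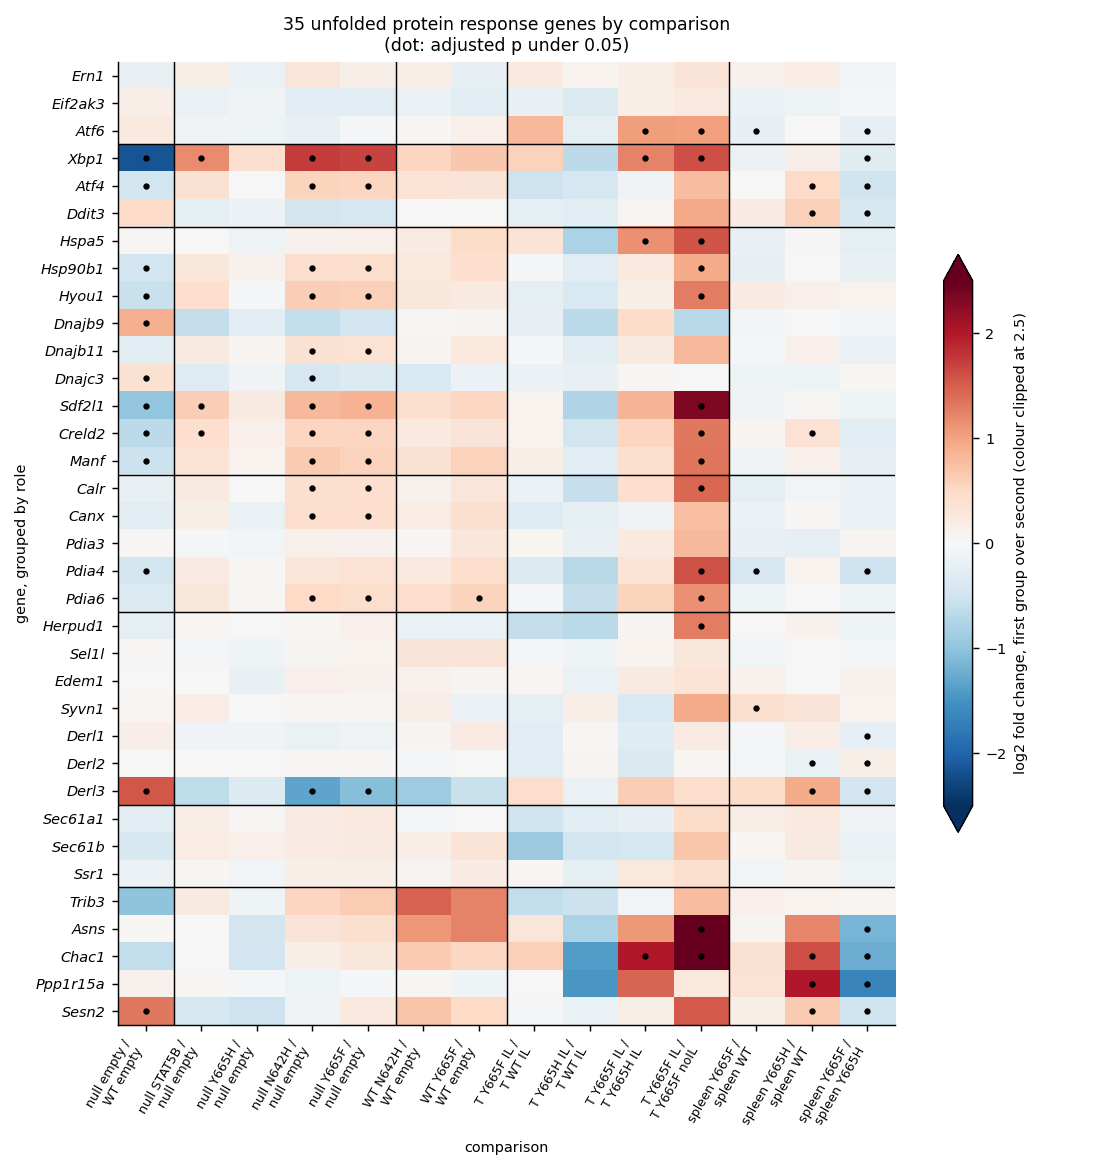
Log2 fold change (colour) of each of the 35 genes (vertical axis, grouped by role) in each comparison (horizontal axis), with a dot at an adjusted p under 0.05. Xbp1 is called with STAT5B, N642H and Y665F in null cells and in cultured against directly taken Y665F T cells, and the sensors Ern1 and Eif2ak3 in none.

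In the splenic T cells of the mutant mice, Xbp1 was highest in cultured Y665F cells. With IL-2 and IL-7 it held 95.2, 127, 121 and 81.2 CPM in WT cells, 56.0, 70.3 and 76.8 CPM in Y665H cells and 164, 163, 151 and 160.0 CPM in Y665F cells, and in Y665F cells taken directly 43.7, 59.2 and 53.0 CPM. The 3 genotypes with interleukins did not overlap. Xbp1 was higher in Y665F than in Y665H cells by log2 1.23 (SE 0.22, fold 2.35, adjusted p = 0.00232). Against WT neither mutant passed, at log2 0.58 for Y665F (SE 0.20, adjusted p = 0.137) and -0.65 for Y665H (SE 0.22, adjusted p = 0.844). The Y665F difference from WT lay near the threshold and passed under 4 alternatives: RLE size factors (log2 0.73, adjusted p = 0.0218), DESeq2 (log2 0.73, adjusted p = 0.000846), the filter of filterByExpr (log2 0.63, adjusted p = 0.0451) and RUVr (log2 0.59, adjusted p = 0.0328). Relative to TMM scaling, RLE size factors moved the median of all genes by 0.12 for Y665F and 0.11 for Y665H against WT and by -0.14 for Y665F cells with against without interleukins.

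Between Y665F and WT T cells, 0 of the 35 genes passed, against 1.44% of all genes (edgeR; 6 unadjusted; 3 by DESeq2). Between Y665H and WT T cells 0 passed, against 0% (10 unadjusted, all lower in Y665H; 0 by DESeq2). Between Y665F and Y665H T cells 4 were higher in Y665F, against 1.95% of all genes, and none lower: Xbp1, Chac1, Hspa5 and Atf6. Chac1, a glutathione-degrading target of ATF4, held 2.64, 3.90, 2.64 and 3.27 CPM in Y665F against 0.558, 0.963 and 0.821 CPM in Y665H cells, a difference of log2 2.00 (SE 0.55, adjusted p = 0.0485). In Y665H replicates 1 and 2, with 3310342 and 2017012 gene reads, these Chac1 values rest on few reads. Hspa5 held 959, 756, 772 and 651 CPM against 236, 381 and 451 CPM, a difference of log2 1.14 (adjusted p = 0.0216), and lay between 426 and 865 CPM in WT cells. The sensor Atf6 held 50.01, 54.6, 76.3 and 59.8 CPM against 19.5, 26.0 and 39.9 CPM (log2 1.05, adjusted p = 0.0239). Asns held 43.0, 43.9, 29.4 and 14.5 CPM against 6.41, 17.3 and 21.8 CPM and did not pass (log2 1.09, adjusted p = 0.133). These calls rest on few libraries. Of all pairs of splenic T-cell libraries within a group, Y665H replicates 2 and 3 had the most similar counts. Their chi-square per degree of freedom was 3.23, and that of every other pair was 15.1 or more. Whether these replicates are separate animals or cultures is not given in the labels. The count of 4 fell to 1 without Y665H replicate 1 or 2, to 2 without Y665F replicate 3 or 4 and to 3 without any of the others, and it was 6 with DESeq2. Leaving out the 3 libraries with fewer than 4000000 gene reads, which keeps 1 Y665H sample, gave 0, with Xbp1 at log2 1.08 (adjusted p = 0.247). Putting the summed library in place of its parts gave 1, Xbp1 at log2 1.19 (adjusted p = 0.013), and keeping it as a further sample gave 5. The last 3 alternatives were added after seeing the data.

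**Figure D4:**
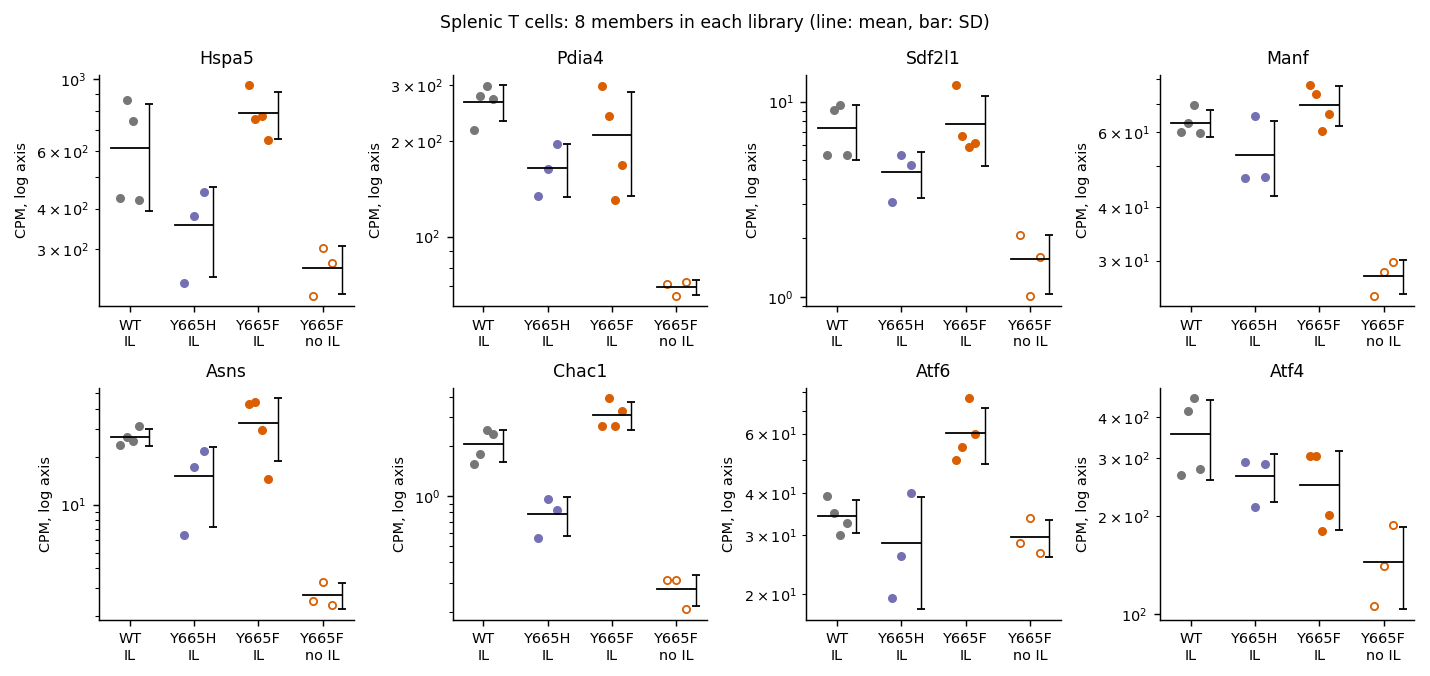
Levels in CPM (vertical log axes) of 8 unfolded protein response genes in each splenic T-cell library, by genotype and treatment (horizontal axes; without interleukins means taken directly after isolation); points are libraries, lines means and bars SDs. Chac1, Hspa5 and Atf6 are higher in every Y665F library with interleukins than in every Y665H library, and the Y665F libraries without interleukins are lowest for Asns and Sdf2l1.

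Y665F T cells cultured for 24 h with IL-2 and IL-7 were compared with Y665F T cells taken directly after isolation, a contrast in which culture and interleukins cannot be told apart. In the cultured cells 14 of the 35 genes were higher, against 2.36% of all genes, none was lower, and none of the 14 overlapped. How many of all genes overlapped was not computed. The median log2 fold change was 0.81 over the members and -0.13 over all genes. The largest differences were in ATF4 targets: Asns held 43.0, 43.9, 29.4 and 14.5 CPM in the cultured and 2.48, 3.27 and 2.35 CPM in the directly taken cells (log2 3.59, SE 0.41, adjusted p = 4.9e-06), and Chac1 held 0.310, 0.312 and 0.208 CPM in the latter (log2 3.47, SE 0.56, adjusted p = 0.00035). The Chac1 values of the directly taken cells lie near the floor and rest on few reads in each library, so the size of its difference is uncertain. Of the transcription factors Xbp1 rose 3.07-fold (log2 1.62, adjusted p = 4.83e-05), while Atf4 (log2 0.78, adjusted p = 0.122) and Ddit3 (log2 0.94, adjusted p = 0.111) did not pass. Sesn2 lay just outside the threshold (log2 1.53, adjusted p = 0.0505), without overlap. The count ranged from 10 without replicate 1 of the directly taken cells to 19 without replicate 3 of the cultured cells.

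Of the 9 chaperones and co-chaperones 6 were higher in the cultured cells. Sdf2l1 held 12.2, 6.64, 5.87 and 6.11 CPM in them and 2.07, 1.01 and 1.59 CPM in the directly taken cells (log2 2.33, adjusted p = 0.00121). Hspa5 was higher by log2 1.58, Manf by 1.33, Creld2 by 1.31, Hyou1 by 1.29 and Hsp90b1 by 0.93, while Dnajb11 (log2 0.81, adjusted p = 0.068) and Dnajb9 (log2 -0.70, adjusted p = 0.190) did not pass. Pdia4, Calr and Pdia6 were higher by log2 1.59, 1.44 and 1.14, the membrane protein gene Herpud1, which organises the degradation complex, by 1.28, and the sensor Atf6 by 1.02. Of 31 further ATF4 and amino acid response genes 18 were higher, led by the serine synthesis gene Psat1 (log2 3.42), with a list median of 1.32, and of the 15 heat shock genes 6 were higher, led by Hspa8 (log2 1.41). In the other lists single genes passed, which is near the 2.36% of all genes: Fkbp2 among 21 further folding genes (log2 1.50), Ssr2 among 20 targeting genes (log2 1.14), Rpn1 among 10 oligosaccharyltransferase genes (log2 1.06), Sec24a among 20 export genes (log2 1.46) and Eif2ak2 among 15 genes around eIF2α (log2 1.11).

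Cell makeup and depth moved with these groups. The 12 macrophage and dendritic cell markers summed to 29.0, 365 and 390 CPM in Y665H and 146 to 169 CPM in WT. In Y665F they summed to 98.4 to 269 CPM with interleukins and 125 to 321 CPM taken directly. Counts not assigned to a single gene made up 63.9 to 72.6% in WT and 68.7 to 71.9% in Y665H. In Y665F they made up 67.6 to 84.0% with interleukins and 77.7 to 85.7% taken directly. The 12 B-cell markers summed to 71.8 to 1213 CPM in the Y665F libraries with interleukins, the highest being replicate 3, which also held the highest erythroid sum (1328 CPM) and the lowest T-cell sum (1058 CPM) on 2851451 gene reads, against 44.2 to 192 CPM in WT. The T-cell sum of the other groups was 1747 to 2838 CPM. The 10 proliferation genes summed to 339 to 574 CPM in Y665F with interleukins, 160 to 210.2 CPM in WT, 31.2 to 167 CPM in Y665H and 93.6 to 215 CPM in Y665F taken directly, and the 12 CD8 effector and NK markers to 1085 to 2530.0, 1182 to 1598, 810.3 to 947 and 757 to 1208 CPM. The 9 measured plasma cell markers, a cell type that uses Xbp1, summed to 70.7 to 171 CPM in Y665F with interleukins, 46.4 to 94.1 CPM in WT, 35.1 to 67.9 CPM in Y665H and 59.97 to 65.6 CPM in Y665F taken directly, and the 9 neutrophil markers to 81.6 to 301, 10.2 to 17.8, 23.1 to 94.5 and 73.3 to 209 CPM. In Y665F with interleukins the plasma cell sum was mostly Irf4 (31.1 to 50.3 CPM), Jchain (8.16 to 49.3 CPM), Prdm1 (11.2 to 23.1 CPM) and Pou2af1 (5.48 to 83.4 CPM). The plasma cell markers Sdc1 and Tnfrsf17 read at most 0.509 and 0.598 CPM there. Xbp1 read 160.0 to 164 CPM in the Y665F libraries other than replicate 3 and 151 CPM in replicate 3. The part of cell makeup and depth in the Xbp1 values and in the other results was not tested.

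In unstimulated spleens the order of Xbp1 was not that of the T cells. Xbp1 held 172 to 198 CPM in WT (n = 4), 158 to 236 CPM in Y665H (median 209, n = 5) and 155 to 175 CPM in Y665F spleens (median 171, n = 7). It was lower in Y665F than in Y665H (log2 -0.30, SE 0.08, adjusted p = 0.011), with overlap, and the call was lost without Y665H replicate 3 (log2 -0.25, adjusted p = 0.0633). Against WT it did not pass in either genotype (Y665F log2 -0.15, adjusted p = 0.279, and Y665H log2 0.15, adjusted p = 0.279). Per kilobase, Xbp1 stood at 56.6 CPM in WT spleens, 32.7 in WT T cells with interleukins, 87.8 in WT and 21.0 in null CD4+ cells with the empty vector, levels from separately scaled experiments.

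In Y665F spleens, 1 of the 35 genes was higher than in WT, against 5.63% of all genes, and 2 were lower, against 6.59%. Both counts are near or below the shares of all genes and are not results about the members, so the calls below describe single genes. Pdia4 held 282 to 352 CPM in WT and 218 to 260 CPM in Y665F spleens, without overlap (log2 -0.42, SE 0.07, adjusted p = 0.00137). Atf6 was lower (log2 -0.21, adjusted p = 0.0101), and Syvn1, the ubiquitin ligase of ER-associated degradation, higher by log2 0.40 with overlap (adjusted p = 0.048). With the replicate block 1 member, Pdia4, was called, though spleens of the same number did not deviate together. Without WT replicate 1 the count was 1, and without WT replicate 3 it was 6. Of 21 further folding genes 6 were lower, led by Fkbp7 (log2 -0.51). Neutrophil markers summed to 398 to 975 CPM in Y665F against 201 to 324 CPM in WT spleens, T-cell markers to 716 to 949 against 563 to 667 CPM, B-cell markers to 5719 to 7076 against 7124 to 8034 CPM, and CD8 effector and NK markers to 346 to 584 against 354 to 384 CPM. Their part in the results was not tested.

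In Y665H spleens, 3 of the 5 PERK-ATF4 targets (Ppp1r15a, Chac1 and Sesn2) and the factors Atf4 and Ddit3 were higher than in WT, while Asns and Trib3 did not pass. Of the 35 genes 7 were higher than in WT, against 10.7% of all genes, and 1, Derl2 (log2 -0.17, adjusted p = 0.0495), was lower, against 9.05%. Ppp1r15a, the stress-induced subunit of the eIF2α phosphatase, held 32.2 to 58.9 CPM in WT and 57.4, 210, 214, 168 and 243 CPM in the Y665H spleens (log2 2.01, SE 0.33, adjusted p = 0.00148). Only replicate 1 lay in the WT range. Chac1 rose by log2 1.62 (adjusted p = 0.00878), Derl3 by 0.93 (adjusted p = 0.00296), Sesn2 by 0.66 (adjusted p = 0.0047), Ddit3 by 0.60 (adjusted p = 0.0036), Atf4 by 0.50 (adjusted p = 0.00307) and Creld2 by 0.35 (adjusted p = 0.0486). Chac1 lay near the floor in the WT spleens, at 0.216 to 0.310 CPM. Asns held 11.3 to 30.7 CPM in WT and 13.5, 68.5, 54.7, 41.2 and 54.6 CPM in Y665H spleens, and did not pass (log2 1.22, SE 0.46, adjusted p = 0.0704). Of 31 further ATF4 and amino acid response genes 12 were higher, led by the glycine transporter gene Slc6a9 (log2 2.53), and among 15 genes around eIF2α the erythroid-enriched kinase gene Eif2ak1 was higher by log2 1.14.

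Against Y665H, 11 members were lower in Y665F spleens, where 15.3% of all genes were, and 1 was higher, Derl2 (log2 0.15), where 10.5% were. The lower ones were Ppp1r15a (log2 -1.65), Chac1 (log2 -1.25), Asns (log2 -1.15), Atf4 (log2 -0.51), Pdia4 (log2 -0.51), Sesn2 (log2 -0.50), Derl3 (log2 -0.47), Ddit3 (log2 -0.39), Xbp1, Atf6 (log2 -0.21) and Derl1 (log2 -0.20), and 3 of them, Pdia4, Atf4 and Atf6, did not overlap. How many of all genes did not overlap was not computed. The block reduced the count of members called to 5.

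**Figure D5:**
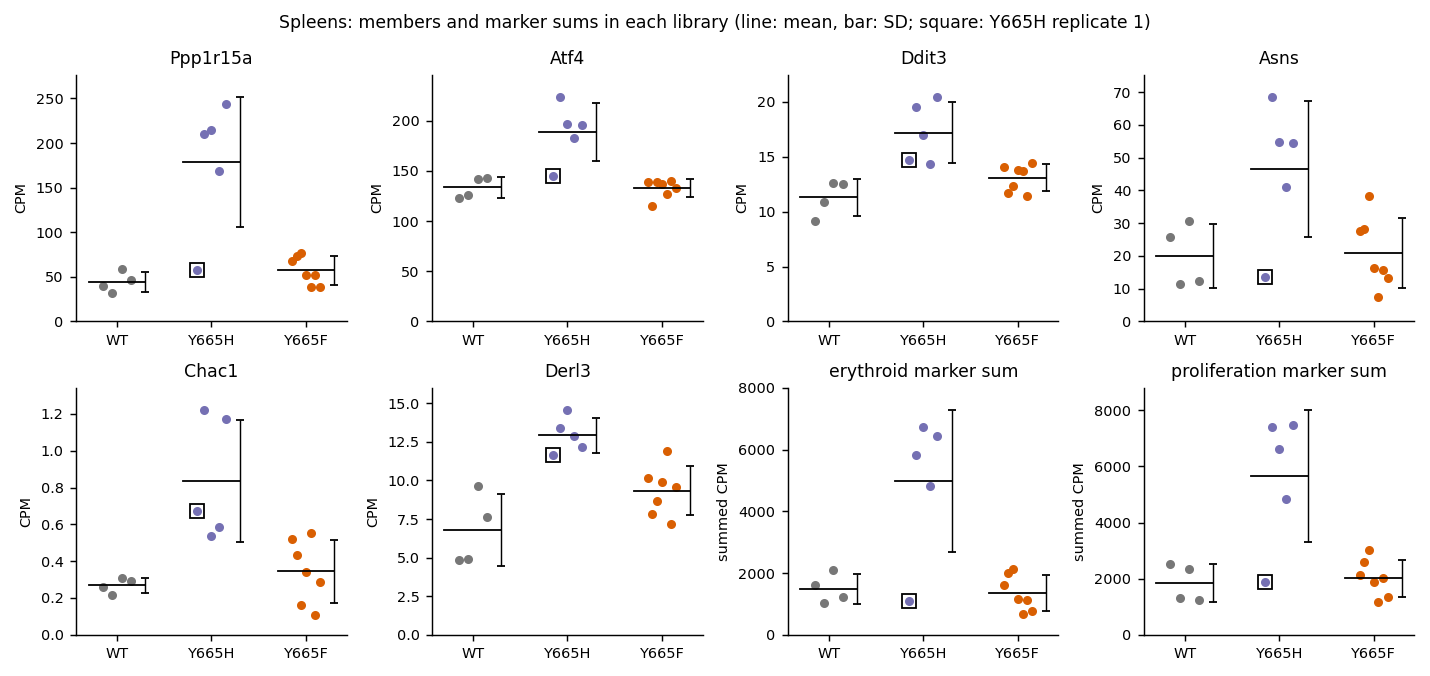
Levels in CPM (vertical axes) of unfolded protein response genes and summed marker genes in each spleen library, by genotype (horizontal axes); points are libraries, the square Y665H replicate 1, lines means and bars SDs. For Ppp1r15a, 4 of the 5 Y665H spleens sit between 168 and 243 CPM and the remaining one, at 57.4 CPM, within the WT range.

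The Y665H spleens were not alike in their makeup. Of 10 erythroid markers 8 were measured, and they summed to 1017 to 2103 CPM in WT, 661 to 2142 CPM in Y665F, 1105 CPM in Y665H replicate 1 and 4812 to 6747 CPM in the other 4 Y665H spleens. The 10 proliferation genes summed to 1229.7 to 2531 CPM in WT, 1895 CPM in Y665H replicate 1 and 4826 to 7478 CPM in the other 4, the 9 measured neutrophil markers to 124 to 1573 CPM in Y665H and 201 to 324 CPM in WT, and the 9 measured plasma cell markers to 1654 to 2538 CPM in Y665H, 1385 to 1615 CPM in WT and 1166 to 1555 CPM in Y665F. T-cell markers summed to 378 to 588 CPM and CD8 effector and NK markers to 152 to 211 CPM in Y665H. The part of these cells in the results was not tested. Without Y665H replicate 1, left out in turn with every other library, 14 members were higher in Y665H than in WT and none lower, Xbp1 among them (log2 0.27, adjusted p = 0.0119), and 20 were lower in Y665F than in Y665H. The share of all genes called in that fit is not given here, so these counts are not results about the members.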

How the data were processed

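Reads of ribosome-depleted total RNA were, according to the submitters' processing notes and methods, checked with FastQC 0.11.9, trimmed with Trimmomatic 0.36, aligned to mm10 with STAR, handled with SAMtools 1.9 and Picard 2.9.2 and counted per gene with HTSeq 0.9.1. The authors deposited 1 file of raw counts per gene for each sample, and the counting's strand setting is not given in the sources used here, so antisense and overlapping genes may share reads. The kit named in the labels marks strand. The labels' extraction text names mammary tissue, while source and title name T cells or spleen, and the latter were used.

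The 5 summary rows that name no gene were left out. Of these, the rows for no feature, ambiguous and not uniquely aligned reads together held 28.4 to 36.9% of all counts in the CD4+ libraries. They held 62.7 to 85.7% in the splenic T cells and spleens. Genes with at least 10 reads over an experiment were tested with edgeR 4.0.16 in R 4.3.3 (limma 3.58.1): TMM scaling, a quasi-likelihood fit over all groups of that experiment, and Benjamini-Hochberg adjustment over all genes tested at 0.05. The null CD4+ cells, WT CD4+ cells, splenic T cells and spleens were fitted apart, and the 2 backgrounds together for the comparison of empty vectors and the interactions. Y665H T-cell replicate 4, whose counts were the sum of replicates 1 and 2, had been planned into the fits and was left out of all of them after its counts were seen, so 60 of the 61 samples were used. The code was tested on simulated data. Figures were drawn with matplotlib 3.10.9 in Python 3.11.15.

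The members and all gene lists were chosen with earlier results of these data known. The named genes were the 35 members, with those past the threshold described by value, and for each further list the gene with the largest rise and fall past it. Alternatives were RLE size factors, DESeq2 1.42.0, other filters on low counts, a fold minimum of log2 1, a replicate block, RUVr with 1 factor, fits of the compared groups alone, each library left out in turn, and, added after seeing the data, T-cell libraries under 4000000 gene reads left out, the summed T-cell library kept or put in place of its parts, and the block within each background.

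Same-numbered libraries paired within each CD4+ background: after removing group means, 30 of 30 pairs in the null cells correlated above 0.1 (lowest 0.242, median 0.466) and 30 of 30 in the WT cells (lowest 0.112, median 0.635), while across the backgrounds 34 of 75 pairs did. In splenic T cells 5 of 19 pairs and in spleens 4 of 13 did, so the numbers do not pair those samples. Intervals over counts cover counting error only.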

Additional observations from a re-analysis of the deposited data

Results flagged for a closer look

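In groups of 4 to 10 libraries, 110 sets of values (22 members that passed in at least 2 comparisons, in 5 groups) were searched for a library that stood far from the rest by Dixon's ratio, a search in which chance gives about 1 in 20 sets, and 2 were found. Sdf2l1 in Y665F T cells with interleukins read 12.2 CPM in replicate 1, and the next highest library read 6.64 CPM (ratio 0.877). Sesn2 in WT spleens read 10.3 CPM in replicate 3, with the next at 8.01 CPM (ratio 0.846).

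The Xbp1 response differed between the backgrounds of the CD4+ cells in the fit with a replicate block within each background: it was larger in the null cells by log2 1.22 for N642H and by log2 1.02 for Y665F (edgeR, adjusted p = 6.39e-06 and 0.000103). Without a block the adjusted p was 0.0919 and 0.226.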

How the results depend on the processing

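Under settings other than leaving out a library, 153 of 198 counts of members that passed were within 1.5 times the reported count and 45 moved, and none of 748 fold changes of single members turned its direction. For the alternatives and the libraries left out, the share of all genes called is given only where stated. Without it a count shows how far a result depends on the setting and is not a result about the members. The lowest depth was in the splenic T cells (2017012 gene reads in 1 library), and the CD4+ groups had 3 samples each. Except where a fold minimum or fewer samples removed calls by construction, the cause was not tested.

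With a fold minimum of log2 1 the counts against the empty vector in null cells fell to 1 with STAT5B, 2 with N642H and 2 with Y665F, to 0 with Y665F in WT cells, to 3 between the empty vectors of the backgrounds, and in spleens to 0 for Y665F and 2 for Y665H against WT and 3 between the mutants. DESeq2 called 10 members with STAT5B in null cells, 1 between N642H and STAT5B, 4 between Y665H and STAT5B, 3 with N642H and 5 with Y665F in WT cells, 1 in the N642H interaction and 3 between Y665F and WT T cells.

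In the fit with the replicate block, which the pairing of the CD4+ libraries calls for, the counts were 9 with STAT5B in null cells, 1 and 6 for N642H and Y665H against STAT5B there, 2, 11 and 15 with STAT5B, N642H and Y665F in WT cells, 1 between N642H and STAT5B in WT cells, and 1 in each interaction, also with the block within each background. In spleens, whose numbers do not pair, the block gave 1 for Y665F against WT and 5 for Y665F against Y665H, and in splenic T cells, whose numbers do not pair either, 3 between Y665F and Y665H and 11 between cultured and directly taken Y665F cells. It moved no other count by more than 1.5 times.

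RUVr gave 1 for Y665H against STAT5B in null cells, 7 with N642H and 11 with Y665F in WT cells, 1 in each interaction, 5 between Y665F and WT T cells, and 7, 14 and 19 in the spleens (Y665F against WT, Y665H against WT, Y665F against Y665H). The compared groups alone gave 1 for Y665H against STAT5B, 0 with Y665F in WT cells and 7 between the empty vectors, and no filter on low counts gave 1 for Y665H against STAT5B. RLE size factors and the filter of filterByExpr each gave 2 between Y665F and WT T cells. Between Y665F and Y665H T cells, 0 members passed without the libraries under 4000000 gene reads and 1 with the summed library in place of its parts, both alternatives added after seeing the data.

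Leaving out each library in turn, with the spread still estimated over all groups of the fit, gave counts of 1 to 4 with STAT5B, 8 to 13 with N642H and 6 to 13 with Y665F in null cells, 0 to 1 for Y665F and for Y665H against STAT5B, 0 to 1 with N642H and 0 to 7 with Y665F in WT cells, 7 to 13 between the empty vectors, 0 to 1 in the N642H interaction, 0 to 2 between Y665F and WT T cells (2 without Y665F replicate 1), 1 to 3 between Y665F and Y665H T cells, 10 to 19 between cultured and directly taken Y665F T cells, and 1 to 6, 6 to 14 and 8 to 20 in the spleens in the order above. Of 740 fold changes of single members 144 fell short of the threshold when a library was left out and 3 turned, all of Xbp1 in WT cells and none past the threshold: Y665H against the empty vector ranged from log2 -0.10 (without empty-vector replicate 3) to 0.26 and read -0.02 without Y665H replicate 1, and N642H against STAT5B ranged from log2 -0.075 (without STAT5B replicate 3) to 0.31.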
